A study of Gallus gallus with 18 samples.

Results

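The maps described here are the C-TALE contact maps of HD3pr and DT40 cells. C-TALE is a Hi-C experiment in which ligation products of a chosen region are fished out with baits made from bacterial artificial chromosomes. The members were taken by assay and cell type: 2 DT40 and 2 HD3pr C-TALE samples, 4 of the 18 samples in the series, each pair deposited as 1 summed map. DT40 is a lymphoid line from a bursal lymphoma that avian leukosis virus induced in a Hyline SC chicken. HD3pr stands for proliferating cells of HD3, an erythroblast line transformed by avian erythroblastosis virus (clone A6 of line LSCC). Both were grown at 37 °C and 5% CO2 in DMEM that held fetal bovine serum (8%) and chicken serum (2%), without further treatment. HD3dif cells, whose map is given beside them, are HD3 cells kept for 14 h at 42 °C in medium that held HEPES (10 mM) and iso-H-7 (20 µM). Each cell type is 1 transformed line, so lineage and line cannot be told apart.

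Contact maps count how often pairs of DNA stretches were ligated after fixation. They fall into domains whose bins contact each other more than their neighbours, and the borders between domains are seen as dips of contact across a position. The chicken alpha-globin genes (HBZ, HBAD and HBA1), which code for the alpha-type chains of embryonic and adult haemoglobin, are highly transcribed in erythroid cells. They lie beside NPRL3, a gene for a subunit of the GATOR1 complex, which holds the major regulatory element, the erythroid enhancer of the cluster, in an intron. In the RefSeq gene order of assembly GRCg7b, RHBDF1, MPG and NPRL3 precede the globin genes, and TMEM8A, MRPL28 and AXIN1, a scaffold protein of Wnt signalling, follow them. The study named the alpha-globin gene domain AgGD, and called the pair of 5C domains into which DT40 divides the area around it T1 and T2. The comparison asked how these maps differ between erythroid cells before induction and cells of another lineage.

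The maps divide chromosome 14 from 11700001 to 12450000 (galGal4) into 150 bins of 5 kb, of which 135 held corrected contacts in every map. Read pairs between different bins numbered 639572 in DT40 and 624863 in HD3pr, against 368241 in HD3dif. The median pair of used bins held 36 read pairs in DT40 and 34 in HD3pr. After iterative correction, every map had the same total of 45602000 corrected contacts. This total is set by the processing, so values are relative to the contacts of the region and are not absolute levels. As each cell type has 1 map, no test over replicates was possible. Errors below are counting errors of read pairs (± SE of a log2 ratio, or an exact 95% binomial interval), and they leave out the spread between cultures. The ± values come from read pairs before correction, although most ratios are of corrected contacts. They leave out how correction weights the bins, whose read pairs ran from 1104 to 17858 in DT40. They are thus not the full counting error of those ratios. One feature of the data touches several results: the first mapped bins of the region stood apart. The share of read pairs in the bin from 11720001 to 11725000 was 1.22 times as large in HD3pr as in DT40 and 1.28 times in HD3dif, the highest ratio of HD3pr to DT40 among all 135 bins, where the 5th and 95th percentiles were 0.922 and 1.11. The first 6 mapped bins (11720001 to 11750000) were therefore left out in an alternative, chosen after the maps had been seen.

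The 2 maps differed little. Over the 6084 bin pairs with a mean of at least 20 read pairs over both maps, the log2 ratio of HD3pr to DT40 had a median of -0.02 and an SD of 0.354, of which counting alone gives 0.291. Under the same limit, the SD was 0.425 between HD3dif and DT40 over 5398 bin pairs, with a counting part of 0.323. It was 0.384 between HD3dif and HD3pr over 5352 bin pairs, with a counting part of 0.323. After removal of the counting part, 0.202 was left between HD3pr and DT40, against 0.276 between HD3dif and DT40 and 0.206 between the HD3 maps. On this measure the DT40 and HD3pr maps lay about as near to each other as the HD3 maps before and after induction. Both distances were shorter than that from DT40 to HD3dif. The sets of bin pairs differ between the comparisons, so the distances are not strictly alike. Without the first 6 mapped bins, what was left was 0.179 between HD3pr and DT40, 0.267 between HD3dif and DT40 and 0.213 between the HD3 maps.

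Contact with distance changed shape between DT40 and HD3pr. The distance classes share the same total, so a rise in some goes with a fall in others, and they are not independent. Neighbouring bins 5 kb apart took 9.53% of corrected contacts in DT40 and 9.93% in HD3pr, a log2 ratio of 0.06 ± 0.0086. Bins 10 to 20 kb apart took 17.9% and 18.7% (0.06 ± 0.0063), and bins 25 to 40 kb apart 14.2% and 14.5% (0.04 ± 0.0071). HD3pr was thus higher in all classes up to 40 kb. Beyond that distance the order turned. Bins 45 to 80 kb apart took 17.7% in DT40 and 17.2% in HD3pr (-0.05 ± 0.0062), and bins 85 to 160 kb apart 19.7% and 17.99% (-0.13 ± 0.0060). In read pairs before correction, the share of this last class was 19.9% (19.8% to 20.0%) in DT40 and 18.5% (18.4% to 18.6%) in HD3pr, with intervals that did not overlap. Above 160 and up to 320 kb the shares were 15.5% and 15.3% (-0.02 ± 0.0064).

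Over 320 kb the share was again higher in HD3pr, 6.33% against 5.52% in DT40, a log2 ratio of 0.20 ± 0.012. Without the first 6 mapped bins this ratio was 0.11. The other classes kept their direction without these bins. HD3dif lay further from DT40 on the same side in the classes up to 160 kb, with log2 ratios to DT40 of 0.27 at 5 kb and -0.23 at 85 to 160 kb. Above 160 and up to 320 kb it had a ratio of -0.15, where that of HD3pr was -0.02. The HD3pr value of this class joins opposite signs. HD3pr lay below DT40 up to 235 kb (-0.12 at 195 kb) and above it at most distances from 240 kb (0.145 at 260 kb). The slope of log2 contact on log2 distance from 10 to 200 kb was -0.717 (DT40), -0.768 (HD3pr) and -0.830 (HD3dif). The difference of HD3pr from DT40 was -0.05 ± 0.0029. It had the opposite sign, at 0.0065, when the fit ran from 20 to 300 kb, so the direction of this difference depends on the distances fitted.

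**Figure D1:**
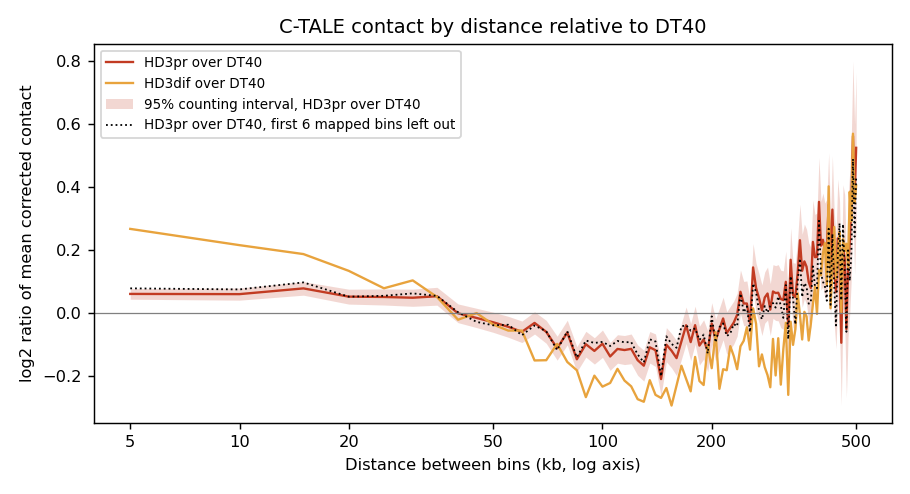
Log2 ratio of the mean corrected contact at each distance (x axis, kb, log scale) of HD3pr and HD3dif over DT40, with the 95% counting interval of HD3pr as a band and the HD3pr ratio without the first 6 mapped bins as a dotted line. HD3pr lay above DT40 up to 35 kb, below it from 60 to 160 kb (-0.06 at 60 kb, -0.14 at 160 kb) and above it at 400 kb (0.21).

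Domain borders were then placed with an insulation score, the log2 mean contact across a bin border within 25 kb on either side relative to the mean over 120 scored borders. Windows with at least 60% of their bin pairs mapped were scored, a limit chosen after the data had been seen. A minimum with a prominence of at least 0.1 was taken as a border. DT40 had 8 such minima and HD3pr 9, and 7 of them were shared within 1 bin, 4 at the same position. The profiles of the scores had a Pearson correlation of 0.974 over the 120 scored borders, which overlap in their windows and are not independent. The sum of both maps had 7 minima, numbered here B1 to B7 and lying after bases 11800000, 11910000, 12065000, 12120000, 12235000, 12305000 and 12350000. B1 to B7 are not the 7 shared minima. DT40 (12395000) and HD3pr (12400000) also shared a minimum that did not pass 0.1 in the sum. B3 is the minimum nearest to the end of T1 in 5C (12080000), and is taken as the T1-T2 border. At 12080000 itself the score was -0.30 in DT40 and -0.27 in HD3pr, a difference of 0.04 ± 0.026. In HD3pr, each of B1 to B7 had a minimum within 1 bin. DT40 lacked one at B1, where its minimum lay at 11810000, and HD3dif lacked one at B4, where its minimum lay at 12145000. A shallow minimum of HD3pr at 11980000 had a prominence of 0.103, and DT40 had none past 0.1 there.

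Scores differed between the maps at many positions, and a pair of neighbouring borders, B3 and B4, moved in opposite directions. At the T1-T2 border B3 the score was -0.59 (DT40), -0.79 (HD3pr) and -0.78 (HD3dif). The difference of HD3pr from DT40 was -0.20 ± 0.028, the largest in size of all 120 scored borders. It rests on 5719 read pairs across the border in DT40 and 4797 in HD3pr. Next in size were borders near the end of the mapped region, at 12410000 (-0.18) and 12405000 (-0.17). The SD of this difference over all scored borders was 0.076, against a median counting SE of 0.028. Differences beyond counting error were thus common along the region and not particular to B1 to B7. At the next border, B4, the score was -0.59 (DT40), -0.45 (HD3pr) and -0.37 (HD3dif). Here HD3pr was higher by 0.14 ± 0.026, the highest difference of all scored borders. In DT40, B3 and B4 were about equally deep, while in HD3pr B3 was the deeper of the pair, as it was in HD3dif. B5 was deeper in HD3pr (-0.34 against -0.21 in DT40, -0.13 ± 0.037). B1, B2, B6 and B7 differed by -0.02 ± 0.028, 0.01 ± 0.035, -0.05 ± 0.032 and 0.01 ± 0.031, each within 2 counting SEs.

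**Figure D2:**
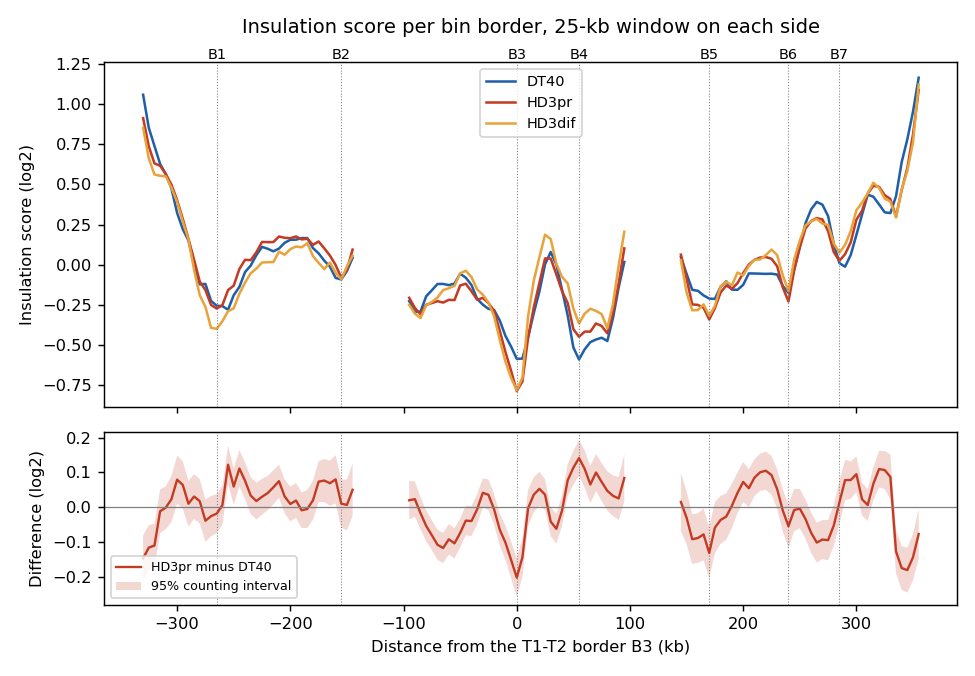
Upper panel, insulation score (log2) of the DT40, HD3pr and HD3dif maps along the region, in kb from the T1-T2 border B3. Lower panel, the score of HD3pr minus that of DT40 with its 95% counting interval. Gaps are stretches without scored borders. The difference was lowest at B3 (-0.20) and highest at B4 (0.14).

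Across the T1-T2 border as a whole, contact was not lower in HD3pr. T1 was taken from 11960001 to 12080000 and T2 from 12080001 to 12260000, as 5C bins of 30 kb place them. The mean corrected contact between T1 and T2 over 768 bin pairs was 2616 (DT40), 2711 (HD3pr) and 2417 (HD3dif), a log2 ratio of HD3pr to DT40 of 0.05 ± 0.0074. The ratio was 0.16 relative to the mean at the same distance, 0.030 with the blocks divided at B3 and 0.015 before correction, so its size depends on the processing. Within T1 the log2 ratio was -0.02 ± 0.0072, and within T2 it was 0.01 ± 0.0075. With the end of T2 placed 25 kb earlier, the ratio within T2 was 0.056. The AgGD interval (12050001 to 12140000) was inferred from where the study put AgGD relative to a compartment border, as genes could not be placed. It had a mean of 6855 (DT40), 7113 (HD3pr) and 8112 (HD3dif). The sub-domain between B3 and B4 (12065001 to 12120000, 55 bin pairs) had 9148, 9661 and 11493, with ratios to DT40 of 0.08 ± 0.014 in HD3pr and 0.33 in HD3dif. Relative to the mean at the same distance, the HD3pr ratio was 0.013 in the sub-domain and 0.010 in AgGD. The HD3pr difference of the sub-domain, of AgGD and within T1 is not fixed in sign, as the maps before correction gave -0.05, -0.03 and 0.02.

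Blocks outside T1 and T2 gave 2 further differences. Between T2 and the distal block (12260001 to 12435000) the mean contact was 1874 (DT40), 1726 (HD3pr) and 1542 (HD3dif) (HD3pr over DT40, -0.12 ± 0.0094). Between the upstream block (11720001 to 11960000) and the distal block it was 256 (DT40), 305 (HD3pr) and 313 (HD3dif) (0.25 ± 0.021). This ratio was 0.17 without the first 6 mapped bins and -0.04 relative to the mean at the same distance. The other 5 block pairs, upstream with itself, with T1 and with T2, T1 with the distal block and the distal block with itself, lay between -0.04 and 0.05. Of these, upstream with itself (-0.01) and upstream with T2 (0.05) had the opposite sign both before correction (0.02 and -0.01) and without the first 6 mapped bins (0.02 and -0.01).

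The 7 borders divide the region into 8 segments, S1 to S8 in order of coordinate. These segments were added after the maps had been seen. S8 also holds the minimum at 12395000 (DT40) or 12400000 (HD3pr and HD3dif), which is not among the 7 borders. Within segments, contact differed little, with log2 ratios of HD3pr to DT40 from -0.01 to 0.13. The highest of them was that of S6 (12235001 to 12305000, 0.13 ± 0.015). Between segments the ratios ran from -0.34 to 0.57. Of all 36 segment pairs, 4 were above 0.2, and all 4 held S1, at the edge of the baited region. Without the first 6 mapped bins, 3 were above 0.2 and the highest ratio was 0.38. These bins moved S1 with S5 from 0.18 to 0.31, with S6 from 0.25 to 0.42, with S7 from 0.38 to 0.57 and with S8 from 0.27 to 0.53, and turned S1 with S4 from -0.13 to 0.12. Relative to the mean at the same distance, the ratio of S1 was 0.14 with S5, 0.17 with S6 and 0.25 with S7, and it turned to -0.09 with S8. A total of 3 segment pairs were below -0.2, and all of them held S4 or S5, the segments next to B4.

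The lowest ratio was that of S2 (11800001 to 11910000) with S4 (12065001 to 12120000), the same interval as the sub-domain. Its mean contact was 1194 in DT40 and 946 in HD3pr, from 10097 read pairs in DT40, a log2 ratio of -0.34 ± 0.022. The ratio was -0.41 before correction and -0.35 relative to the mean at the same distance, and HD3dif over DT40 was -0.43. S4 was also lower with S3, its neighbour across B3 (-0.12 ± 0.010), while it was higher with S5 across B4 (0.08 ± 0.013).

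S5 (12120001 to 12235000), on the far side of B4, had less contact with every segment beyond it and more with every segment before it. These directions are not independent, as iterative correction evens out the total of each bin. The log2 ratio of S5 was -0.26 ± 0.014 with S6, -0.16 ± 0.028 with S7 and -0.28 ± 0.023 with S8. It was 0.14 ± 0.011 with S3, 0.08 ± 0.013 with S4, 0.06 ± 0.021 with S2 and 0.31 ± 0.030 with S1 (0.18 without the first 6 mapped bins). The signs of these 7 ratios were the same before correction and without the first 6 mapped bins. Relative to the mean at the same distance, that of S2 with S5 turned to -0.04 and the other 6 kept their sign. HD3dif over DT40 had the same sign as HD3pr for S5 with S1, S4, S6, S7 and S8, and the opposite sign with S2 (-0.13) and S3 (-0.10). Of the contacts of S5 with other segments at least 35 kb away, 41.6% went to higher coordinates in DT40, 35.2% in HD3pr and 35.8% in HD3dif. Without the first 6 mapped bins, the first pair of these shares was 42.4% and 36.2%. In read pairs, the share was 35.3% (34.98% to 35.6%) in DT40 and 29.0% (28.7% to 29.3%) in HD3pr. The same share for S4 was 45.9% (DT40), 49.3% (HD3pr) and 50.4% (HD3dif), a move in the other direction. For S6 and S7 it differed by less than 1 percentage point (37.2% and 38.0% for S6, 38.0% and 37.5% for S7). For S2 the shares were 65.7% (DT40), 68.1% (HD3pr) and 71.1% (HD3dif), and for S3 they were 57.1%, 58.2% and 53.0%. In HD3dif the share was 34.7% for S6 and 39.0% for S7. HD3pr lay on the side of HD3dif for S2, S4 and S5. For S3, S6 and S7 they lay on opposite sides of DT40.

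**Figure D3:**
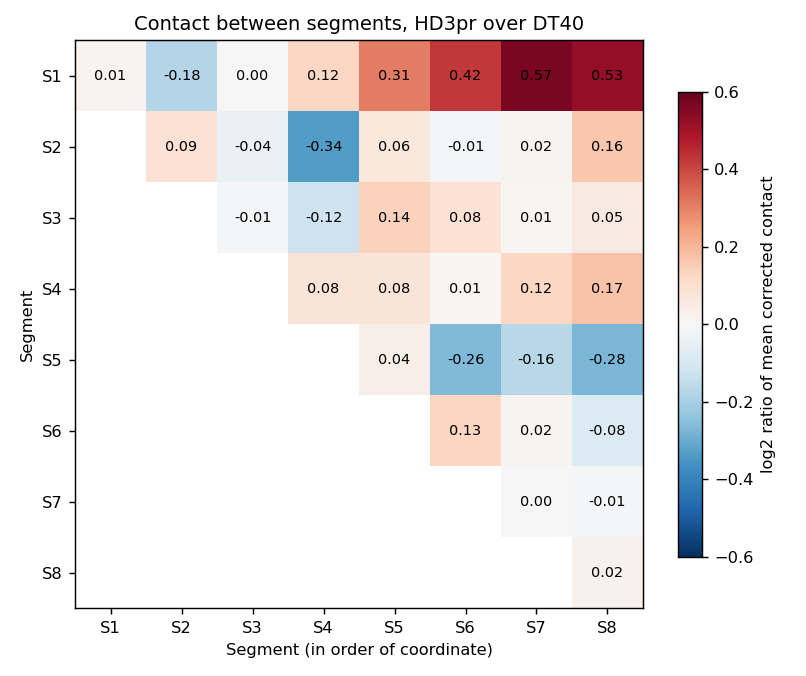
Log2 ratio of the mean corrected contact of HD3pr over DT40 for each pair of the 8 segments (both axes, in order of coordinate), with the value printed in each cell. S2 with S4 (-0.34) and S5 with S6, S7 and S8 (-0.26, -0.16 and -0.28) were lower in HD3pr, and the highest values lie in the row of S1, which holds the first mapped bins. Relative to the mean at the same distance, S1 with S5, S6, S7 and S8 had 0.14, 0.17, 0.25 and -0.09.

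At the level of single bin pairs, 254 of 6084 were more than 1.5-fold higher in HD3pr (4.17%) and 362 were more than 1.5-fold lower (5.95%). Calls rose with distance, where read pairs are few. Of the 132 pairs of neighbouring bins none was past 1.5-fold, and of the 1549 pairs 85 to 160 kb apart 16 were higher and 131 lower. At 325 kb and beyond, 83 of 463 were higher and 29 lower. The first 6 mapped bins held 6.49% of the pairs and 26.4% of those called higher. Without them, 191 of 5689 pairs were higher (3.36%) and 321 lower (5.64%). The same rule for HD3dif over DT40 called 2.59% higher and 13.8% lower. Within S2 with S4, 52 of 234 pairs were lower and 1 higher, and within S5 with S8, 50 of 180 were lower and 1 higher, against the 5.95% and 4.17% of all pairs. These segment pairs were picked for their low ratios, so their counts are a description only.

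Sums over 3 × 3 bin pairs, at least 30 kb apart and with a mean of at least 50 read pairs, gave the single places that differed most. Of all 7228 sums with that mean, before the limit on distance, 1.85% were more than 1.5-fold higher in HD3pr and 0.401% lower. The 5 highest sums all joined bins before 11740001 with bins 400 to 655 kb away. The highest of these, 11720001 to 11735000 with 12375001 to 12390000, held 24 read pairs in DT40, 76 in HD3pr and 32 in HD3dif (1.60 ± 0.338). When the first 6 mapped bins were left out, the highest sum joined 11765001 to 11780000 with 12265001 to 12280000 and held 52, 86 and 48 read pairs (0.82 ± 0.253). Of the 5 lowest sums, 3 joined other bins and held more read pairs. The sum of 12135001 to 12150000 with 12355001 to 12370000, in S5 and S8, held 446 read pairs in DT40 against 263 in HD3pr and 122 in HD3dif. Its corrected contact was 13858, 8243 and 7035 (HD3pr over DT40, -0.75 ± 0.112). The sum of 11815001 to 11830000 with 12090001 to 12105000, in S2 and S4, held 369, 227 and 147 read pairs (-0.66 ± 0.122). The sum of 12200001 to 12215000 with 12370001 to 12385000, again in S5 and S8, held 431, 270 and 137 (-0.65 ± 0.112). These 3 were lower in HD3dif than in DT40 too (-0.98, -0.60 and -0.77). The other 2 of the 5 lowest joined 11900001 to 11915000 with 12375001 to 12390000 (67 and 43 read pairs in DT40 and HD3pr) and 11720001 to 11735000 with 11830001 to 11845000 (546 and 398).

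Crossings of borders, where contact of the ends of a domain would appear as a corner, were measured as observed over expected contact in 3 × 3 bin pairs for the 9 crossings up to 200 kb apart. The mean log2 ratio of HD3pr to DT40 over them was 0.01, and -0.12 when single bin pairs were taken. HD3pr was higher at 4 and lower at 5, and 2 lay beyond 2 counting SEs. At the crossing of B3 and B5 (170 kb) the observed over expected contact was 1.15 (DT40), 1.43 (HD3pr) and 1.33 (HD3dif) (HD3pr over DT40, 0.31 ± 0.113). At the crossing of B6 and B7 (45 kb) it was 1.43, 1.22 and 1.10 (-0.23 ± 0.061). Neither was stable. The first fell to 0.19 when a single bin pair was taken and to 0.09 with 5 × 5 bin pairs, and the second had the opposite sign with a single bin pair (0.02).

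RNA of the same cells was read as coverage per base per 1e9 covered bases of the library, from 2 libraries per cell type. With 2 against 2 the smallest p of a two-sided exact permutation test is 0.333, so values alone are given. Of the 97 bins in which at least 1 of the 2 cell types had a mean of 0.3, 6 were more than 2-fold higher in HD3pr and 4 more than 2-fold lower. Of the 6 higher bins, 5 lay in S4, among the 5C bins taken for AgGD. S4 holds 11 of the 150 bins. A mean of 0.3 in either cell type sufficed. Of the higher bins, only that from 12110001 to 12115000 reached it in DT40 too (mean of 0.371). The others passed through HD3pr alone, so the count is a description only. The bin from 12095001 to 12100000 had 0.0081 and 0.0036 (DT40 libraries), 3.69 and 3.76 (HD3pr) and 64.4 and 57.2 (HD3dif). The bin from 12115001 to 12120000, just before B4, had 0.245 and 0.247 (DT40 libraries), 1.78 and 1.75 (HD3pr) and 21.9 and 21.4 (HD3dif). In both bins the order was DT40, HD3pr, HD3dif, with no overlap between the libraries of any pair of cell types. Between DT40 and HD3pr, libraries did not overlap in most of the 150 bins, so this alone does not set them apart. The bins were not paired with gene names here.

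Over AgGD, coverage was 1.24 and 1.42 in DT40 and 1.59 and 1.57 in HD3pr, a log2 ratio of 0.25. This ratio was 0.41 with totals adjusted by TMM and 1.25 as a median over bins. Over the whole of S4, coverage was 0.601 and 0.745 in DT40 and 1.37 and 1.303 in HD3pr. The libraries did not overlap, as in every segment but S8. Over S5, which also holds the bin from 12120001 to 12125000, coverage was 1.33 and 1.34 in DT40 and 1.79 and 1.97 in HD3pr. This segment includes a stretch without any read pairs in the maps (12175001 to 12195000), where coverage was 1.06 and 1.03 in DT40 and 1.79 and 2.07 in HD3pr. Coverage was almost level from 12150001 to 12185000, across the start of this stretch. The first bin of that run had 1.26 in the first DT40 library and 2.00 in the first HD3pr library, and the last bin had 1.24 and 1.98. Whether coverage in this run is RNA made there was not tested, which limits the values of S5. Whether other bins hold such coverage was not tested either, so the limit may extend to them. S1, whose contacts with distant segments were highest relative to DT40, had little RNA (0.0040 and 0.0036 in DT40, 0.0079 and 0.0084 in HD3pr). Within 25 kb of B3, the border that was deeper in HD3pr, coverage was 1.18 and 1.38 in DT40 and 0.999 and 0.986 in HD3pr. Within 25 kb of B4, the border that was shallower in HD3pr, it was 1.297 and 1.41 in DT40 and 1.97 and 1.961 in HD3pr. These means rest largely on the bin from 12120001 to 12125000, which was lower in HD3pr. Every bin of the window before that one was higher in HD3pr. Within 25 kb of B5, which was deeper in HD3pr like B3, coverage was 0.989 and 0.927 in DT40 and 1.43 and 1.58 in HD3pr, higher where that of B3 was lower. At B3 in HD3dif, whose score was within 0.01 of that of HD3pr, coverage was 5.54 and 5.10. The relation of transcription to border depth was not tested.

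**Figure D4:**
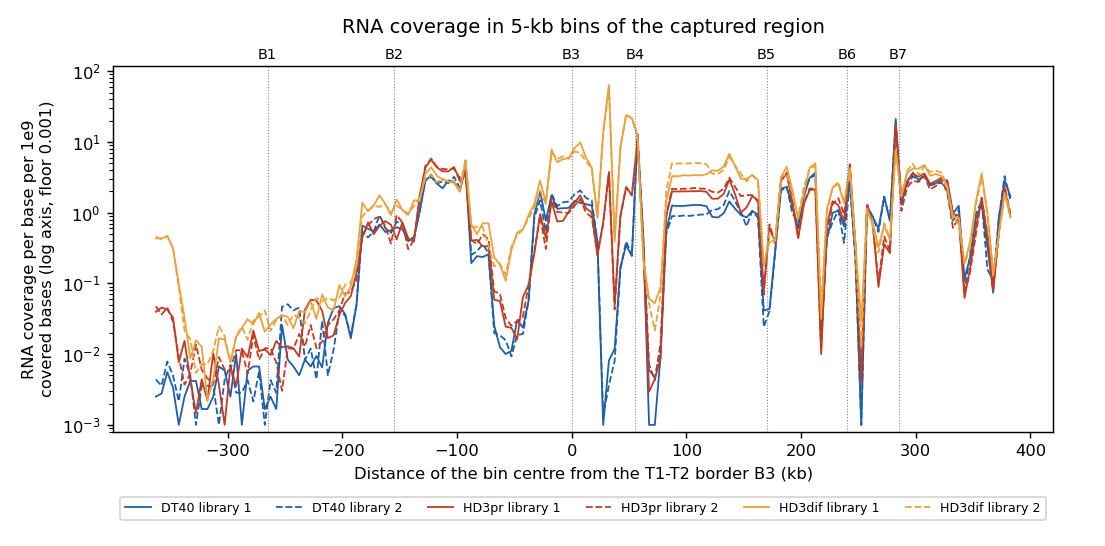
RNA coverage of 5-kb bins (y axis, log scale, values under 0.001 drawn at 0.001) in each library along the region, in kb from the T1-T2 border B3. The HD3pr and DT40 libraries lay furthest apart between B3 and B4, where the bin from 12095001 had 0.0081 and 0.0036 in DT40 and 3.69 and 3.76 in HD3pr.

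The 2 bins from 12090001 to 12100000 were also taken as a viewpoint. Among the 97 bins with a mean RNA coverage of at least 0.3 in 1 of the cell types, they had the highest ratio of HD3pr to DT40. They were picked under a lower limit on the mean coverage of HD3pr, the cell type in which they are higher. Their mean contact with S2 was 1148 (DT40), 919 (HD3pr) and 794 (HD3dif) (HD3pr over DT40, -0.32 ± 0.051), and with S3 3038, 2840 and 2525 (-0.10 ± 0.024). With the rest of S4 it was 9553, 10129 and 12036 (0.08 ± 0.023). With S5 the log2 ratio was 0.04 ± 0.031. With S6, S7 and S8 it lay between -0.02 and 0.08, and each ratio from S5 to S8 was within 2 counting SEs. With S1 it was 0.16 ± 0.067, beyond 2 counting SEs. The whole of S4, which includes the viewpoint, had -0.34 with S2, -0.12 with S3, 0.08 within itself and 0.12 with S1. The last of these turned to -0.13 when the first mapped bins were left out. With S2, S3 and S4 the viewpoint thus gave values close to those of its segment. Whether its bins differ from the rest of S4 was not tested.

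The 5C libraries, 2 per cell type, measured the same blocks at 30 kb in the frame of a larger region. Contact between T1 and T2, as a multiple of the map's mean, was 2.25 and 2.27 in DT40 and 3.01 and 3.28 in HD3pr, a log2 ratio of 0.48, larger than that of the C-TALE maps. Contact of the bins nearest to S2 and S4 was 1.98 and 1.36 in DT40 and 0.907 and 0.435 in HD3pr, from 3 bin pairs. The groups did not overlap here, but neither did they for most block pairs in 5C, whatever the direction. For the bins nearest to S5 with those nearest to S6 to S8 the 5C groups overlapped (2.54 and 2.62 in DT40, 2.53 and 2.69 in HD3pr). Between the upstream and the distal block 5C was lower in HD3pr (0.744 and 0.7499 in DT40, 0.544 and 0.634 in HD3pr), in the other direction from the C-TALE maps. The same held for T2 with the distal block, which was higher in HD3pr in 5C (2.28 and 2.26 in DT40, 2.41 and 2.43 in HD3pr). For the upstream block with T2, 5C was lower in HD3pr (1.18 and 1.09 in DT40, 0.883 and 0.885 in HD3pr), while C-TALE gave 0.05, a value whose sign turned before correction (-0.01) and without the first 6 mapped bins (-0.01). The C-TALE ratio of upstream with distal also turned relative to the mean at the same distance (-0.04). Of these 3 differences in direction between the assays, that of T2 with distal alone held under those 3 settings of the C-TALE maps. Its 5C ratio was 0.09, and 0.03 without iterative correction of the 5C maps. T1 with distal also differed in sign (0.03 in C-TALE, -0.14 in 5C). There the 5C libraries overlapped, and the C-TALE sign turned relative to distance (-0.05). The cause of these differences was not tested.

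**Figure D5:**
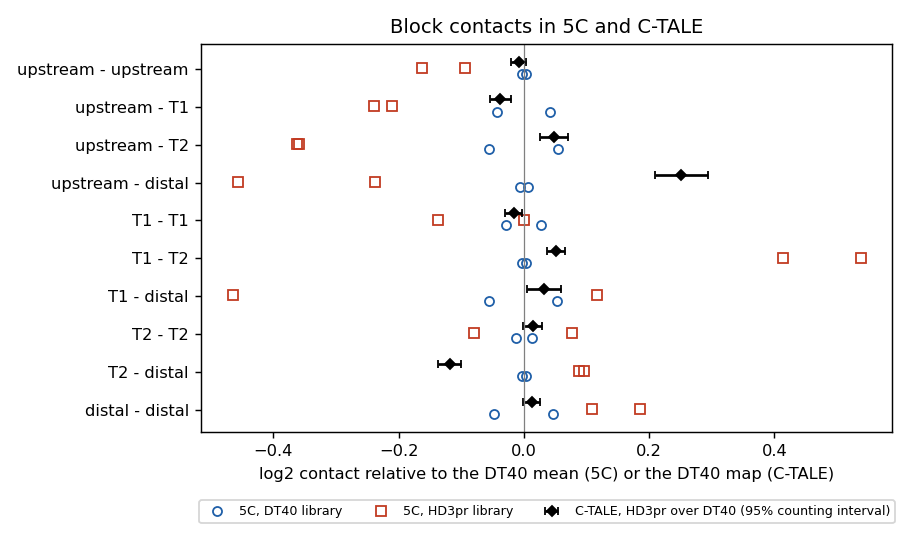
Log2 contact of block pairs (y axis). Open symbols are 5C libraries relative to the DT40 mean, and black diamonds are the C-TALE ratio of HD3pr to DT40 with its 95% counting interval. T1 with T2 was higher in HD3pr in both (0.48 in 5C, 0.05 in C-TALE), while upstream with distal had opposite signs (0.25 in C-TALE).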

How the data were processed

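C-TALE libraries (Hi-C cut with DpnII, then enriched with baits) came from 2 samples per cell type. The authors mapped reads to galGal4 with Bowtie2 2.2.1, removed duplicates and short-range pairs, summed the replicates, and deposited counts of read pairs between 5-kb bins and the iteratively corrected signal. The corrected maps leave out 15 of the 150 bins used here. RNA coverage signal and gene read counts, and 5C counts per primer pair, were deposited per library. Bins without corrected contacts and contacts within a bin were left out, and insulation windows needed 60% of their bin pairs. Maps were compared with Python 3.11.15, numpy 2.4.6 and scipy 1.17.1. TMM factors (edgeR 4.0.16, R 4.3.3) scaled coverage in 1 alternative. In 5C the primer axes were exchanged, because the strongest partner of a primer then lay a median of 11.3 to 12.3 kb away, against 69.0 to 76.6 kb as labelled. Insulation, slope, block ratios, counting parts and the Armatus score were tested on simulated data. The Armatus score was tested there at another value of its gamma parameter than the 0.15 used on the maps. Read pairs are amplified molecules without molecular identifiers, so intervals cover counting error only. Named sums are the 5 highest and 5 lowest that share no bin pair. The cell types, blocks and lists were chosen with earlier results of these data known. The gene test planned for HD3pr against DT40 was not run, and the cell type markers were not checked, because the gene identifiers in the count tables could not be paired with names or positions.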

Additional observations from a re-analysis of the deposited data

Results flagged for a closer look

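The 4 bins from 11935001 to 11955000 are left out of the corrected maps although the maps before correction hold read pairs there. Summed over the 4 bins, the read pairs were 18993 in DT40, 18246 in HD3pr and 10876 in HD3dif, which is 4748, 4562 and 2719 per bin, against medians of 8584, 8423 and 5203 over the bins used. They were flagged as signal outside the comparisons of the report, above the limit that a count of 0 allows. The stretch lies inside S3, and no corrected contact of S3 includes it.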

How the results depend on the processing

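Of 215 values under other settings, 130 stayed within the spread or counting error of the value, or within 1.5 times a count. Another 74 moved further, and 11 had the opposite sign where the value itself was larger than its error. Counting all sizes, 29 had the opposite sign, 7 among the 130 and 11 among the 74. No paired analysis was possible because each cell type has 1 summed C-TALE map. Other settings of the gene test (other size factors, another tool, no filter, the block, left-out libraries, another threshold) were not run, since the gene test was not. Leaving out the first 6 mapped bins, the limit on mapped pairs in insulation windows, and the segments were chosen after seeing the data. The cause was not tested for any value that moved or turned.

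The slope difference of HD3pr from DT40 was -0.044 before iterative correction, -0.067 over 10 to 100 kb and 0.0065 over 20 to 300 kb, the last with the opposite sign. Before correction, the log2 ratio was 0.077 at 10 to 20 kb, -0.11 at 85 to 160 kb and 0.17 over 320 kb. Without the first 6 mapped bins it was 0.078 at 5 kb, -0.11 at 85 to 160 kb and 0.11 over 320 kb, and with only bins wholly inside the baits 0.17 over 320 kb. Shared minima numbered 4 with a window of 50 kb, of 6 in each map, and 4 with a prominence of 0.2, of 5 in DT40 and 6 in HD3pr. With complete windows only they numbered 5, of 6 minima in each map. Of 2 Armatus borders in each map, 1 was shared, at 11955000, where a stretch left out of the corrected maps ends. The other lay at 12265000 in DT40 and 12255000 in HD3pr. The difference at the T1-T2 border was -0.13 with a window of 50 kb and -0.28 before correction.

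Bin pairs past 1.5-fold higher in HD3pr numbered 487 with a mean of at least 10 read pairs and 24 with 50, where 98 were lower. Past 2-fold, 39 were higher and 43 lower. In 7945 sums over 3 × 3 bin pairs with a mean of at least 20 read pairs, 315 were higher and 37 lower. The SD between the maps was 0.369 before correction, 0.258 with at least 50 read pairs, 0.342 relative to the mean at each distance and 0.338 without the first 6 mapped bins.

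T1 with T2 gave 0.015 before correction, 0.16 relative to distance and 0.030 with the border at the insulation minimum. With the end of T2 placed 25 kb earlier, the ratio was 0.056 within T2 and -0.18 for T2 with distal. Signs were opposite before correction for upstream with itself (0.020), upstream with T2 (-0.011), within T1 (0.021), within AgGD (-0.031) and within the sub-domain (-0.049). Relative to distance they were opposite for upstream with T1 (0.039), upstream with distal (-0.037) and T1 with distal (-0.049), and without the first 6 mapped bins for upstream with itself (0.024) and with T2 (-0.013). With single bin pairs the mean over crossings was -0.12 and B6 with B7 was 0.017. With 5 × 5 bin pairs B3 with B5 was 0.093. RNA coverage of AgGD gave 0.41 with TMM-adjusted totals, where the distal block had the opposite sign (0.036) and T1 too (0.072), and 1.25 as a median over bins. With primer axes as labelled, T1 with T2 in 5C was 0.25.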
